A study of Mus musculus with 6 samples.

Results

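The replication-dependent histone genes were followed in the spleen of female NOD mice, an inbred strain that develops autoimmune diabetes, after treatment with the mitochondrial peptide MOTS-c. A probe was a member if the deposited fold-change table gave it a symbol of the Hist1, Hist2, Hist3 or Hist4 clusters or of the newer histone nomenclature. This took 60 of 31692 probes, which stand for 51 genes. They comprise 6 probes of linker histone H1 (5 genes), 16 of H2A (15 genes), 17 of H2B (13 genes), 10 of H3 (9 genes) and 11 of H4 (9 genes). The Hist1 cluster on chromosome 13 holds 43 of the probes, the Hist2 cluster on chromosome 3 holds 12, the Hist3 cluster on chromosome 11 holds 4, and Hist4h4 on chromosome 6 is the last.

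There were 3 samples per group. The vehicle group received a scrambled form of the MOTS-c peptide, and the MOTS-c group received MOTS-c intraperitoneally at 0.5 mg/kg/day. Mice were 6 weeks old at the start, treatment was given every morning, and spleens were collected at 18 weeks, following a fast of 16 to 18 h. Whether each sample is a mouse of its own is not stated in the labels; the p-values below measure the spread between samples, which may be technical. Total RNA of the whole spleen was labelled with Cy3 and read on 1-colour Agilent arrays with probes of 60 bases.

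Most mRNAs end in a poly(A) tail, but the mRNAs of replication-dependent histones end in a short conserved stem-loop, which is bound by the stem-loop binding protein SLBP. They are made in S phase, when new DNA has to be packed into nucleosomes, and are degraded when DNA synthesis stops. A nucleosome core holds H2A, H2B, H3 and H4, and H1 binds the linker DNA between cores. The genes lie in clusters, many encode the same or nearly the same protein, and some also give polyadenylated transcripts, among them Hist1h1c, Hist1h2bc, Hist2h2be and Hist3h2a. The labelling kit named in the labels starts from an oligo-dT primer, so the amount of signal from an mRNA without a tail may not follow its abundance, and a brighter probe does not show a more abundant mRNA. Brightness is given below as a property of the probe.

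The stem-loop is read directly by some of the probes. The motif searched was GG, any 2 bases, CTTTTCAG, any 2 bases and CC, on the sense strand with at least 9 of its 16 bases inside the probe. It was found in 10 of the 60 histone probes and in 24 of all 31692 (0.0757%). The stretches of 30 bases below show the motif in 6 of them, with its bases in capitals, because these probes hold bases of the stem-loop that defines these mRNAs. A polyadenylated transcript that runs past the stem-loop would hold them too, so the probe does not tell the forms apart. Their probes lie at chr13:23665629-23665688 on the minus strand (Hist1h2bf), chr3:96074056-96074115 on the plus strand (Hist2h2bb), chr13:23853756-23853815 on the minus strand (Hist1h3a), chr13:21874784-21874843 on the minus strand (Hist1h3i), chr13:21903960-21904019 on the plus strand (Hist1h4m) and chr13:23662489-23662548 on the minus strand (Hist1h2ae), in mm9 as the array design gives them.
Hist1h2bf: taacccaaaGGCTCTTTTCAGAGCCaccta
Hist2h2bb: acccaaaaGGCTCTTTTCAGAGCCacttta
Hist1h3a: aattaaccaaaGGCTCTTTTCAGAGCCaca
Hist1h3i: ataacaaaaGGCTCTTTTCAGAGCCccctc
Hist1h4m: caactaaaGGCCCTTTTCAGGGCCatccaa
Hist1h2ae: CTTTTCAGAGCCattcacttaattcagtaa

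A second set of probes reads stretches that are almost alike between paralogs. The 4 H2A probes below, of Hist1h2ak (chr13:21845304-21845363, minus strand), Hist1h2an (chr13:21902669-21902728, plus strand as the design gives it), Hist1h2ah (chr13:22127035-22127094, minus strand) and Hist2h2aa2 (chr3:96043781-96043840, minus strand), are shown because they are nearly the same sequence. Hist1h2ak and Hist2h2aa2 match at 55 of 60 bases although their genes lie on different chromosomes.
Hist1h2ak: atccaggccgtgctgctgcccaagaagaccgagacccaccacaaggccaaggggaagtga
Hist1h2an: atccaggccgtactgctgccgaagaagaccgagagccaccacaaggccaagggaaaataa
Hist1h2ah: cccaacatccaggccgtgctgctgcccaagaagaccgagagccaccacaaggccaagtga
Hist2h2aa2: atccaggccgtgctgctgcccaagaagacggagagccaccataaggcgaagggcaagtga
Probes of another member that match at 50 or more of 60 bases without gaps were found for 7 H2A probes and 2 H4 probes, and for none of the other classes. Probes were compared only with each other and not with the transcripts of paralogs. The search therefore cannot show that the remaining probes, of any class, read only their own gene. The values of the probes with such a match are uncertain as to which gene they stand for. The same holds for the probes of Hist1h2ai, Hist1h2an and Hist1h2ao, whose mm9 positions in the array design overlap, and for that of Hist1h2ag, whose position there spans more than its own length.

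All 60 histone probes were well above background on all 6 arrays and none was saturated. Each array had 59305 spots for RNA and 61.8% to 64.0% of them were well above background. The 75th percentile of the signal was lowest on vehicle 1 (678) and lay between 841 and 926 on the others. Vehicle 1 and vehicle 2 were on one slide, and vehicle 3 and all MOTS-c samples were on another, so a comparison within a slide rests on 1 vehicle sample.

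Histone signal was lower with MOTS-c in nearly all members, but no single probe passed the adjusted threshold. The mean was lower in 54 of 60 histone probes (46.3% of all probes) and higher in 6 (53.7%). The median difference, MOTS-c minus vehicle on the log2 scale, was -0.85 over the histone probes and 0.04 over all 31692 probes, with a range of -2.55 to 1.08 among the histones. With limma and Benjamini-Hochberg adjustment over all probes, 0 histone probes had an adjusted p under 0.05 (0% of all probes), and the smallest adjusted p was 0.0820. At an unadjusted p under 0.05, 39 histone probes were lower (13.7% of all probes) and 2 were higher (12.2%). All 3 MOTS-c samples lay below all 3 vehicle samples in 44 histone probes (16.7% of all probes) and above them in 2 (17.7%). In whole spleen, fewer cells that express a gene and less of its RNA per cell cannot be told apart.

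The 6 samples were not evenly spaced. Over the 60 probes, the median deviation of a probe from its mean over the 6 arrays was 0.75 in vehicle 1, 0.11 in vehicle 2 and 0.32 in vehicle 3, against -0.64, -0.23 and -0.40 in MOTS-c 1, 2 and 3. The groups did not overlap in this median, and vehicle 1 stood highest. Without vehicle 1 the median difference was -0.64 and 36 probes were lower at an unadjusted p under 0.05 (10.3% of all probes). Within the slide that held both groups, it was -0.73, and with the slide as a block in the fit 15 probes were lower at an unadjusted p under 0.05 (7.18% of all probes). No histone probe was higher at that level when any one MOTS-c sample was left out, and 1 was when vehicle 1 was. Adjusted p-values under 0.05 appeared without vehicle 2, for both probes of Hist3h2ba, and with a variance prior that follows intensity, for 4 probes (Hist1h2bp, both of Hist3h2ba, and Hist1h3d).

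**Figure D1:**
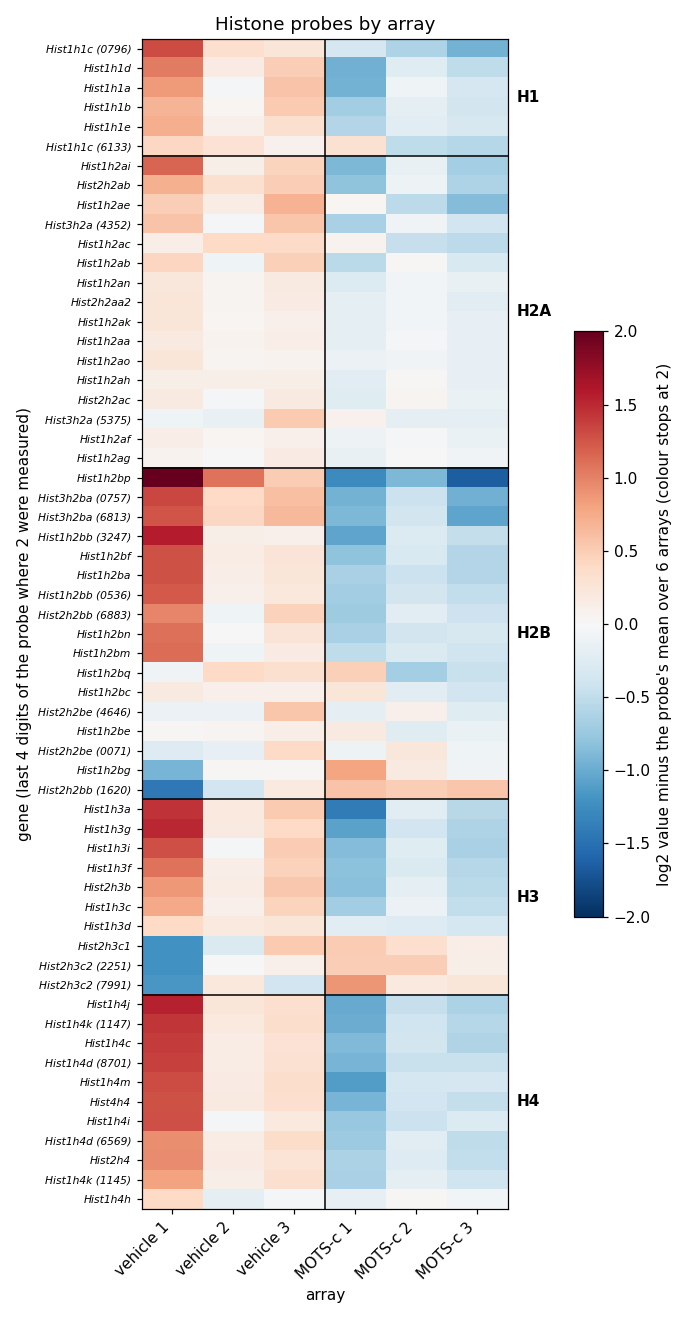
Each row is a histone probe and each column an array; the colour gives the log2 value minus the probe's mean over the 6 arrays, and the colour scale stops at 2. Vehicle 1 is the reddest column and the MOTS-c columns are blue in most rows, apart from 6 rows of the H2B and H3 classes with a higher MOTS-c mean.

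The linker histones, which bind DNA between nucleosomes and fold it further, were lower in all 6 probes. The class median was -0.87. Of the 6 probes, 5 were lower at an unadjusted p under 0.05 (13.7% of all probes), and 5 were lower without overlap (16.7%). Hist1h1d (chr13:23647452-23647511, plus strand) had log2 values of 11.32, 10.45 and 10.77 in vehicle 1, 2 and 3 and of 9.33, 10.04 and 9.77 in MOTS-c 1, 2 and 3. All MOTS-c samples lay below all vehicle samples, with a difference of -1.13 (SE 0.27) and an adjusted p of 0.0903.

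Hist1h1b (chr13:21871923-21871982, minus strand) and Hist1h1e (chr13:23713707-23713766, minus strand) were among the brighter H1 probes. The values of Hist1h1b were 14.79, 14.14 and 14.64 in vehicle and 13.42, 13.92 and 13.74 in MOTS-c, a difference of -0.83 (SE 0.22, adjusted p = 0.0993). Those of Hist1h1e were 14.79, 14.15 and 14.37 against 13.47, 13.83 and 13.74, a difference of -0.76 (SE 0.20, adjusted p = 0.1001). Neither gene's groups overlapped. Hist1h1a (chr13:23855888-23855947, plus strand) read 11.003, 10.11 and 10.72 in vehicle and 9.20, 10.06 and 9.82 in MOTS-c, and here vehicle 2 and MOTS-c 2 lay only just apart. Its difference was -0.92 (SE 0.30, adjusted p = 0.133). Hist1h1t, the testis form of H1, was above background on 2 of 6 arrays and was not among the probes tested.

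H2A, which forms dimers with H2B at the surface of the nucleosome, was lower in all 16 probes, with the class median nearest to 0. That median was -0.29. Of the 16 probes, 7 were lower at an unadjusted p under 0.05 (13.7% of all probes), and 12 were lower without overlap (16.7%). The class fell into 2 sets by brightness, a split made after the values were seen and given no test. In the 9 brightest H2A probes, which were between rank 3 and rank 116 of 31692 on every array, the differences lay between -0.31 and -0.15 with a median of -0.24, that is, 1.11-fold to 1.24-fold lower. In the 7 others the median was -0.74, and 6 of the 7 were lower at an unadjusted p under 0.05 against 1 of the 9.

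The 9 bright probes had values of 17.24 to 18.18 on a scale that ended at 18.63, and the next histone probe reached no better than rank 883 on its worst array. Their values had been set by rank in the quantile normalization, and the scaling changed them: with each array scaled to its 75th percentile in place of quantile normalization, their median difference was -0.44 and 7 of 9 were lower at an unadjusted p under 0.05. The median of the whole H2A class was then -0.47, and 13 of its 16 probes were lower at an unadjusted p under 0.05 (14.5% of all probes). Without the 9 bright probes, the median over the 51 remaining histone probes was -0.92.

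Among the dimmer H2A probes, Hist2h2ab (chr3:96024171-96024230, plus strand) had the smallest p. It read 6.70, 6.30 and 6.48 in vehicle and 5.17, 5.88 and 5.37 in MOTS-c, so the groups did not overlap, and the difference was -1.02 (SE 0.22, adjusted p = 0.0820). Hist1h2ai read 12.50, 11.45 and 11.78 against 10.43, 11.18 and 10.65, a difference of -1.15 (SE 0.31, adjusted p = 0.102). Its probe ends inside the stem-loop and was lower in every MOTS-c sample than in any vehicle sample. The probe of Hist1h2ae starts inside the stem-loop, with 12 of the motif's 16 bases, and the rest of it lies in the sequence beyond. It was dim at 5.63, 5.28 and 5.83 in vehicle and 5.18, 4.61 and 4.26 in MOTS-c. The difference was -0.90 (SE 0.26, adjusted p = 0.114), and MOTS-c 1 lay just below vehicle 2.

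Hist3h2a was bright in its upstream probe (chr11:58768387-58768446, plus strand), with 16.33, 15.74 and 16.32 in vehicle and 15.11, 15.69 and 15.37 in MOTS-c. That difference was -0.74 (SE 0.23, adjusted p = 0.121), again with vehicle 2 and MOTS-c 2 close together.

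H2B, the partner of H2A, held both ends of the range. The class median was -0.89 (-0.58 without vehicle 1). Of the 17 probes, 10 were lower at an unadjusted p under 0.05 (13.7% of all probes) and 1 was higher (12.2%). All MOTS-c samples lay below all vehicle samples in 10 probes (16.7%) and above them in 1 (17.7%). Hist1h2bp (chr13:21880994-21881053, plus strand) had the largest difference of all 60 probes. Its values were 8.60, 7.47 and 6.90 in vehicle and 5.11, 5.49 and 4.73 in MOTS-c, a difference of -2.55 (SE 0.43, adjusted p = 0.0820), which is 5.84-fold lower. The probe was dim, between rank 16743 and rank 31243 of 31692. Its MOTS-c values lay near the lowest value of the scale (4.17), so the size of the fold is uncertain. The lowest vehicle sample lay more than 1 log2 unit above the highest MOTS-c sample. Without vehicle 1 the difference was -2.07, and within the slide of both groups it was -1.79.

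Hist3h2ba gave the same picture in both of its probes. The probe that ends inside the stem-loop (chr11:58762804-58762863, plus strand) read 11.52, 10.58 and 10.79 in vehicle and 9.23, 9.75 and 9.22 in MOTS-c, a difference of -1.56 (SE 0.28, adjusted p = 0.0820). The probe 160 bases downstream, which holds AATAAA, the letters of a poly(A) signal, read 13.04, 12.20 and 12.43 against 10.89, 11.41 and 10.73. Its difference was -1.54 (SE 0.27, adjusted p = 0.0820). Neither probe's groups overlapped.

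Hist1h2bf, read across its whole stem-loop, had 12.54, 11.41 and 11.52 in vehicle and 10.46, 10.95 and 10.67 in MOTS-c. The difference was -1.13 (SE 0.31, adjusted p = 0.107) with no overlap, and -0.77 without vehicle 1. Hist1h2ba (chr13:24025811-24025870, minus strand), known as a testis form of H2B, read 13.52, 12.38 and 12.48 against 11.59, 11.82 and 11.66, a difference of -1.11 (SE 0.30, adjusted p = 0.104) and -0.74 without vehicle 1. In both genes vehicle 1 stood about 1 log2 unit above the other vehicle samples. Whether the Hist1h2ba probe also reads transcripts of other H2B genes was not tested.

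Hist1h2bc and Hist2h2be, H2B genes known for polyadenylated transcripts, had overlapping groups. This does not extend to the other H2B probes that hold AATAAA or ATTAAA. The groups were apart in those of Hist3h2ba (-1.54) and Hist2h2bb (1.08) and overlapped in that of Hist1h2be (-0.14). Hist1h2bc (chr13:23784254-23784313, plus strand) read 12.94, 12.87 and 12.86 in vehicle and 13.01, 12.54 and 12.38 in MOTS-c. MOTS-c 1 was above every vehicle sample and the other MOTS-c samples below, with a difference of -0.25 (SE 0.18, adjusted p = 0.408). Hist2h2be read 10.91, 10.91 and 11.59 against 10.85, 11.13 and 10.79 in its brighter probe (chr3:96027578-96027637, plus strand), a difference of -0.22 (SE 0.22, adjusted p = 0.553), and 0.02 (SE 0.21) in the other. Within the slide of both groups these differences were -0.67 and -0.39, and without vehicle 1 they were -0.33 and -0.11. The groups overlapped in both probes.

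Hist1h2bg (chr13:23663823-23663882, plus strand) was the H2B gene whose brightest probe had a higher mean with MOTS-c. It was dim, at 5.62, 6.57 and 6.57 in vehicle and 7.34, 6.73 and 6.47 in MOTS-c, and MOTS-c 3 lay within the vehicle range. The difference was 0.60 (SE 0.33, adjusted p = 0.281), and it was 0.28 without vehicle 1, the lowest sample.

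H3, which with H4 forms the centre of the nucleosome, was lower in 7 of 10 probes, with a class median of -0.95. All 7 were lower at an unadjusted p under 0.05 (13.7% of all probes) and without overlap (16.7%). Hist2h3b (chr3:96072881-96072940, plus strand) read 13.60, 12.88 and 13.26 in vehicle and 11.89, 12.54 and 12.19 in MOTS-c, a difference of -1.04 (SE 0.24, adjusted p = 0.0870). Hist1h3d (chr13:23667979-23668038, plus strand) was the most even within its groups, with 15.66, 15.46 and 15.51 against 15.04, 15.01 and 14.92. Its difference was smaller, at -0.55 (SE 0.13, adjusted p = 0.0880), and changed little without vehicle 1 (-0.49).

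Hist1h3f (chr13:23636330-23636389, plus strand) read 10.42, 9.48 and 9.81 in vehicle and 8.52, 9.04 and 8.77 in MOTS-c, a difference of -1.12 (SE 0.26, adjusted p = 0.0884). Hist1h3c (chr13:23836950-23837009, minus strand) read 14.93, 14.27 and 14.62 against 13.48, 14.06 and 13.69, a difference of -0.86 (SE 0.22, adjusted p = 0.0983). The groups of both genes were apart, with vehicle 1 highest and MOTS-c 1 lowest in each.

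The other 3 H3 probes had a higher mean with MOTS-c, and all belong to Hist2h3c1 and Hist2h3c2. Hist2h3c1 (chr3:96052051-96052110, plus strand) read 6.43, 7.37 and 8.17 in vehicle and 8.16, 7.99 and 7.77 in MOTS-c, a difference of 0.65 (SE 0.40, adjusted p = 0.329) that turned to -0.19 within the slide of both groups. The brighter Hist2h3c2 probe (chr3:96042034-96042093, minus strand) read 6.44, 7.66 and 7.74 against 8.14, 8.14 and 7.76, a difference of 0.73 (SE 0.35, adjusted p = 0.232), and 0.31 without vehicle 1. Its second probe differed by 0.89 (SE 0.36, adjusted p = 0.178), and by 0.53 without vehicle 1. Vehicle 1 was the lowest sample in all 3 probes. None of them is annotated with a RefSeq mRNA.

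H4 was lower in all 11 probes, with a class median of -1.19. Of the 11, 10 were lower at an unadjusted p under 0.05 (13.7% of all probes), and the same 10 were lower without overlap (16.7%). Hist1h4j (chr13:21826989-21827048, plus strand) read 11.24, 9.94 and 10.03 in vehicle and 8.70, 9.24 and 9.07 in MOTS-c, a difference of -1.40 (SE 0.36, adjusted p = 0.0951). Without vehicle 1, which stood more than 1 log2 unit above the other vehicle samples, it was -0.99.

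Hist4h4 (chr6:136752717-136752776, minus strand), the single gene outside the larger clusters, read 12.44, 11.34 and 11.50 in vehicle and 10.23, 10.78 and 10.69 in MOTS-c. The difference was -1.19 (SE 0.31, adjusted p = 0.0983). Hist2h4 (chr3:96066953-96067012, minus strand) read 14.23, 13.45 and 13.56 against 12.66, 13.02 and 12.80, a difference of -0.92 (SE 0.23, adjusted p = 0.0950). In both, every MOTS-c sample lay below every vehicle sample. Hist1h4d read 13.84, 13.06 and 13.27 against 12.19, 12.69 and 12.40 in its brighter probe (chr13:23673749-23673808, plus strand), a difference of -0.97 (SE 0.24, adjusted p = 0.0921), without overlap.

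The remaining H4 probe, of Hist1h4h (chr13:23622937-23622996, plus strand), was named after its values were seen. It read 8.04, 7.45 and 7.61 in vehicle and 7.47, 7.66 and 7.58 in MOTS-c, a difference of -0.13 (SE 0.18, adjusted p = 0.665). Its groups overlapped, and without vehicle 1 the difference was 0.04.

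By cluster, the median difference was -0.89 over the 43 Hist1 probes, -1.14 over the 4 Hist3 probes and -0.22 over the 12 Hist2 probes. In the Hist2 cluster 7 probes were lower and 5 higher, while in the Hist1 cluster 42 were lower and 1 higher. The Hist2 set includes the H3 probes with a higher mean and 2 of the bright H2A probes. Taking 1 probe per gene, its brightest, 48 of 51 genes had a lower mean, and the median was -0.83.

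**Figure D2:**
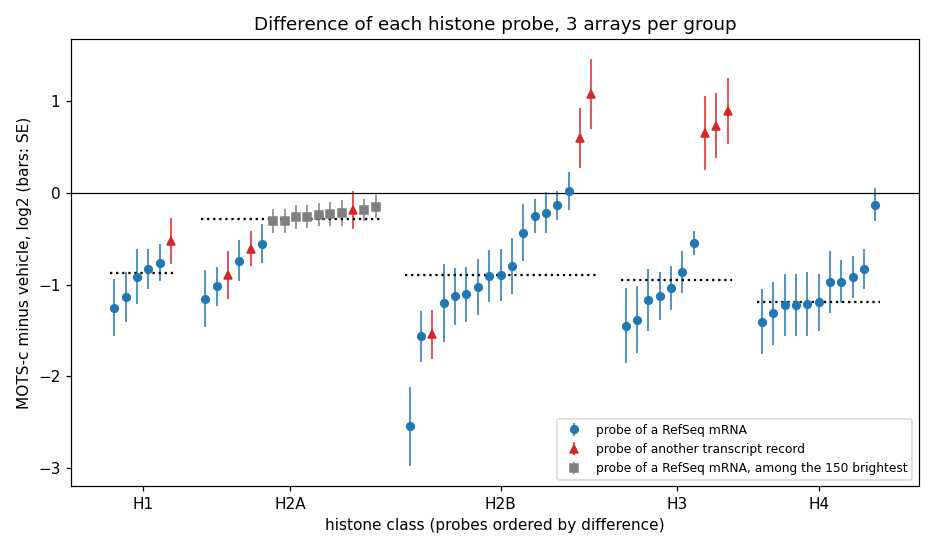
Each point is the difference of 1 histone probe, MOTS-c minus vehicle in log2 units (bars, SE; n = 3 per group), within its class, and dotted lines are class medians. The bright H2A probes (grey squares) lie between -0.31 and -0.15, and the points clearly above 0 are probes of transcript records other than RefSeq mRNAs (red triangles).

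The probes also differ in the part of the transcript that they read. The 10 probes with stem-loop bases were all lower, with a median difference of -1.16 and of -0.86 without vehicle 1. All 10 were lower at an unadjusted p under 0.05 (13.7% of all probes) and 9 without overlap (16.7%). The 5 probes that hold AATAAA or ATTAAA, the letters of a poly(A) signal, on the sense strand had a median of -0.15. That median is the value of the Hist1h2ag probe, a bright H2A probe whose gene is uncertain. Its letters overlap what reads as the stop codon of H2A, so it may hold no poly(A) signal. Whether the letters serve as a signal in the others was not determined. Of the 5, 1 was lower at an unadjusted p under 0.05, the downstream probe of Hist3h2ba. Another, the downstream probe of Hist2h2bb, was higher. The 50 probes annotated with a RefSeq mRNA had a median of -0.91, 49 of them being lower, and the 10 annotated with another transcript record had a median of 0.20, with 5 lower and 5 higher. Those 10 lay at a median of -0.04 without vehicle 1 and of -0.27 within the slide of both groups. These splits were made after the values were seen and were not tested.

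For 9 genes a pair of probes could be compared within each sample. The probes of Hist2h2bb, an H2B gene named after its values were seen, lay farthest apart. The upstream probe, whose stem-loop is shown above, read 13.17, 12.10 and 12.65 in vehicle and 11.47, 11.96 and 11.78 in MOTS-c, a difference of -0.90 (SE 0.28, adjusted p = 0.124). The downstream probe (chr3:96082754-96082813, plus strand), 8698 bases further on and holding AATAAA, read 8.43, 9.49 and 10.07 against 10.43, 10.37 and 10.42, a difference of 1.08 (SE 0.38, adjusted p = 0.146). The groups were apart in both probes, in opposite directions. Without vehicle 1 the differences were -0.64 and 0.63.

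The downstream minus upstream value of Hist2h2bb was -4.74, -2.61 and -2.58 in vehicle and -1.04, -1.59 and -1.36 in MOTS-c. An exact two-sided permutation test gave p = 0.1, the smallest that 3 against 3 samples allow, and 0.225 after adjustment over the 9 pairs. Hist1h1c, the H1 gene known for a polyadenylated form, differed less downstream as well: its upstream probe, which reaches into the stem-loop, differed by -1.25 (SE 0.31), and its downstream probe, 688 bases further on, by -0.53 (SE 0.25). The upstream probe read 12.44, 11.47 and 11.38 in vehicle and 10.80, 10.52 and 10.20 in MOTS-c, and the downstream one 13.68, 13.55 and 13.34 against 13.56, 12.75 and 12.68. The groups overlapped downstream only, through MOTS-c 1, and the exact p for the difference between probes was 0.1 (adjusted 0.225).

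In Hist1h4k the upstream probe differed by -1.32 and the downstream probe, 216 bases away, by -0.83, with the same exact p of 0.1 (adjusted 0.225). That upstream probe matches the Hist1h4c probe at 52 of 60 bases, so the pair may not read 1 gene. Hist2h2be, with 0.02 upstream and -0.22 downstream, also had an exact p of 0.1 (adjusted 0.225). In Hist3h2a the pair differed by -0.74 and -0.19 (exact p = 0.2, adjusted 0.360). The exact p was 0.3 to 0.6 in Hist1h4d, Hist1h2bb, Hist2h3c2 and Hist3h2ba. With 3 against 3 samples no pair could have reached 0.05.

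**Figure D3:**
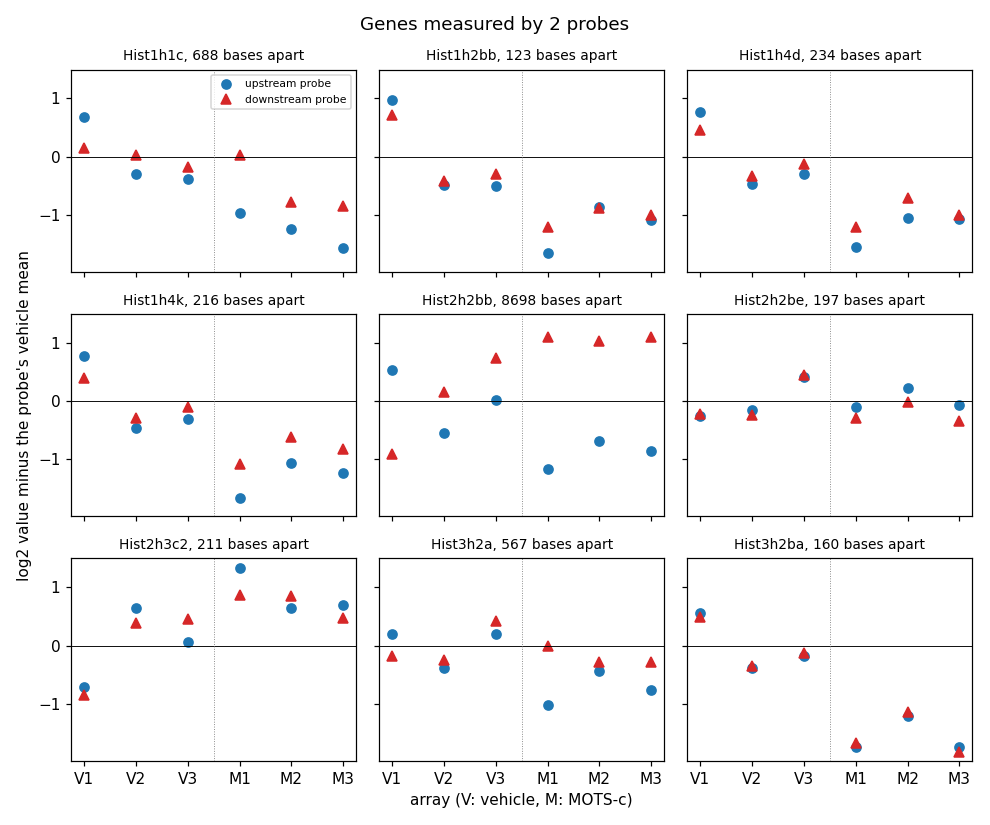
For each of the 9 genes with 2 probes, points give the log2 value on each array minus that probe's vehicle mean, for the upstream probe (circles) and the downstream probe (triangles). In Hist2h2bb the 2 probes part in opposite directions, with differences of -0.90 and 1.08, while in Hist3h2ba they coincide.

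The promoters of the members share elements that the member rule did not use. RefSeq windows on GRCm38.p6, from 250 bases before to 50 bases after the start, were at hand for 46 of the 51 genes (47 windows). On either strand, CCAAT stood in 87.2% of them and in 37.4% of all 32851 windows, and TATAAA in 57.4% and 13.6%. Every H1, H2A, H2B and H3 window held CCAAT, and 25.0% of the 8 H4 windows did. The octamer ATTTGCAT, known as the site of OCT1 in H2B promoters, was in 7 of 15 H2A and 6 of 12 H2B windows, in none of the other classes, and in 1.74% of all windows. TTTGGCGC or TTTCGCGC, which are forms of the E2F site, stood in 12.8% of member windows and 0.813% of all windows. These matches describe letters and do not show that a factor was bound.

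Many H2A and H2B genes are transcribed away from each other from one short stretch, and 5 such pairs had overlapping windows. The stretches between the starts of 2 pairs are shown because the probes of their genes differed by unlike amounts. They are written on the plus strand from the start of the H2A gene on the left to that of the H2B gene on the right, with the 4 elements named above in capitals, whichever strand they are on. The first has 179 bases (chr13:23571221-23571399, GRCm38.p6) and the second has 239 (chr13:21787249-21787487, GRCm38.p6).
Hist1h2ae and Hist1h2bg: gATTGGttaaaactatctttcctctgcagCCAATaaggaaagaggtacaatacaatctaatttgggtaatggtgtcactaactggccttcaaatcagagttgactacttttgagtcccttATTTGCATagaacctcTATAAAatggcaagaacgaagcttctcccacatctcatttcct
Hist1h2an and Hist1h2bp: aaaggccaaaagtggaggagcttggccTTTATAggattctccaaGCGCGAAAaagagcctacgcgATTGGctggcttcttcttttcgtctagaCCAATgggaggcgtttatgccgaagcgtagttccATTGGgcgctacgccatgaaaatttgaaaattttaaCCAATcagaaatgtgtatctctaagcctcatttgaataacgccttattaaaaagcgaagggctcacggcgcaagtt
Across the first stretch, the difference was -0.90 for Hist1h2ae and 0.60 for Hist1h2bg. Across the second it was -0.31 for Hist1h2an, one of the bright H2A probes, and -2.55 for Hist1h2bp. With 75th percentile scaling the Hist1h2an probe differed by -0.50. In the other 3 pairs both genes had a lower mean, by -0.26 and -0.89 for Hist1h2ak and Hist1h2bn, by -0.26 and -1.11 for Hist1h2aa and Hist1h2ba, and by -0.24 and -0.43 for Hist1h2ao and Hist1h2bq. Hist1h2ae and Hist1h2bg are both read by probes that are not annotated with a RefSeq mRNA. The probes of Hist1h2an, Hist1h2ak, Hist1h2aa and Hist1h2ao are among those whose gene is uncertain. For Hist1h2an and Hist1h2bq the array design places the probe on the plus strand, while the gene's window is on the minus strand. The differences are therefore those of probes and may not be those of the paired genes.

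The factors that make and process histone mRNA lay on both sides of 0. Of 19 such genes, each represented by its brightest probe, 11 had a lower and 8 a higher mean, with an unadjusted p under 0.05 in 4 of the lower (13.7% of all probes) and 2 of the higher ones (12.2%), and the median difference was -0.17. These shares at an unadjusted p under 0.05, near those of all probes, say nothing particular to the list. Without overlap, 7 of the 19 genes were lower (16.7% of all probes) and 3 were higher (17.7%), which was not tested. Slbp, whose product binds the stem-loop, read 12.42, 11.84 and 12.09 in vehicle and 11.25, 11.74 and 11.66 in MOTS-c, a difference of -0.57 (SE 0.21, adjusted p = 0.153) without overlap. Its other probes lay between -0.99 and -0.82. Eri1, an exonuclease that trims the stem-loop end, differed by -0.75 (SE 0.18, adjusted p = 0.0921), also without overlap.

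Npat, the coactivator of histone gene transcription, differed by -0.34 (SE 0.19, adjusted p = 0.285) with overlapping groups, and Casp8ap2, its partner at the histone locus body, by -0.46 (SE 0.16) without overlap. Hinfp, which binds H4 promoters, differed by -0.14 and Zfp473, a protein of the processing complex, by 0.005, both with overlap. The U7 particle, which guides the cut behind the stem-loop, contains Lsm10 and Lsm11: Lsm10 differed by 0.41 with overlap, and Lsm11 by 0.50 (SE 0.15, adjusted p = 0.116) without, but its other probe by -0.23.

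Histone chaperones, which carry new histones to DNA, were lower in 16 of 19 genes, with a median of -0.34. The unadjusted p was under 0.05 in 9 of the lower (13.7% of all probes) and none of the higher ones (12.2%). The smallest p-values were those of Asf1b (-0.98, SE 0.16), Chaf1a (-1.06, SE 0.21) and Chaf1b (-1.19, SE 0.27), which deliver H3 and H4 behind the replication fork. Their groups did not overlap. The median was -0.21 within the slide of both groups. Hira (-0.26), Daxx (0.32) and Atrx (0.14), which serve the replication-independent H3.3, had unadjusted p-values above 0.05. The groups of Hira did not overlap, and those of Daxx and Atrx did. These genes were picked by role and not by p-value, so they do not show that chaperones of the fork and of H3.3 differ.

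The genes listed as replication-independent histones also lay on both sides of 0. Whether each is made outside S phase was not tested. Of 12 measured genes of 14 listed, 8 had a lower and 4 a higher mean, with a median of -0.34. The unadjusted p was under 0.05 in 5 of the lower (13.7% of all probes) and 1 of the higher ones (12.2%). Cenpa, the H3 form of centromeres, differed by -0.99 (SE 0.18). H2afx (-0.62, SE 0.13), H2afz (-0.54, SE 0.14), H3f3a (-0.42, SE 0.13) and H2afj (-0.37, SE 0.13) were also lower at that level, all without overlap, and the other probes of H3f3a lay between -1.01 and -0.47. H2afy, which encodes the macroH2A form of silent chromatin, was the one higher, by 0.52 (SE 0.18), with its other probes between 0.28 and 0.65. The others were H3f3b (-0.36), H1fx (-0.33), H2afv (-0.09), H2afy2 (0.06), H2afy3 (0.09) and H1foo (0.10).

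Genes of S phase had a lower mean in all 24 of the genes measured (25 listed), with a median of -1.01 and of -0.84 without vehicle 1. Each was lower at an unadjusted p under 0.05 (13.7% of all probes) and without overlap (16.7%). Among those with the smallest p-values were Pola1 (-0.99, SE 0.16), a subunit of the polymerase that starts new strands, and Tk1 (-1.42, SE 0.25), a thymidine kinase. Per sample, the median deviation of the list was 0.85, 0.31 and 0.45 in vehicle and -0.74, -0.22 and -0.51 in MOTS-c. The order of the samples was that of the histone probes in both groups, with vehicle 1 highest and MOTS-c 1 lowest.

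Markers of cell types differed alongside the histones, and their part in the result was not tested. All 16 erythroid precursor markers had a lower mean, with a median of -1.09 and of -0.95 without vehicle 1. Of these markers, 15 were lower at an unadjusted p under 0.05 (13.7% of all probes) and 14 without overlap (16.7%). Their mean level ranged from 14.01 to 14.61 in vehicle and from 13.24 to 13.45 in MOTS-c. Among those with the smallest p-values were Tspo2 (-1.29, SE 0.19) and Slc4a1 (-1.11, SE 0.18), the anion exchanger of red cell membranes.

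Lymphocyte markers went the other way. All 12 T cell markers had a higher mean (median 1.06), at mean levels of 10.87 to 12.31 in vehicle and 12.74 to 12.86 in MOTS-c, and all 10 B cell markers did (median 0.83), at 10.59 to 12.30 against 12.33 to 12.54. At an unadjusted p under 0.05, 10 of the T cell markers were higher and only 3 of the B cell markers (12.2% of all probes). Without overlap, 11 and 6 were higher (17.7%). Vehicle 1 was the lowest sample of both lists, and without it the medians were 0.56 and 0.36. Of 10 germinal centre and plasma cell markers, 3 were lower and 7 higher, with a median of 0.28. The 10 neutrophil precursor markers overlapped between groups in every gene, and their median was 0.72 over all samples and -0.44 within the slide of both groups. Every marker of these 5 lists was measured and, like all 31692 probes of the table, well above background on all 6 arrays. The table holds only such probes, so this is no check of the tissue or its cells.

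**Figure D4:**
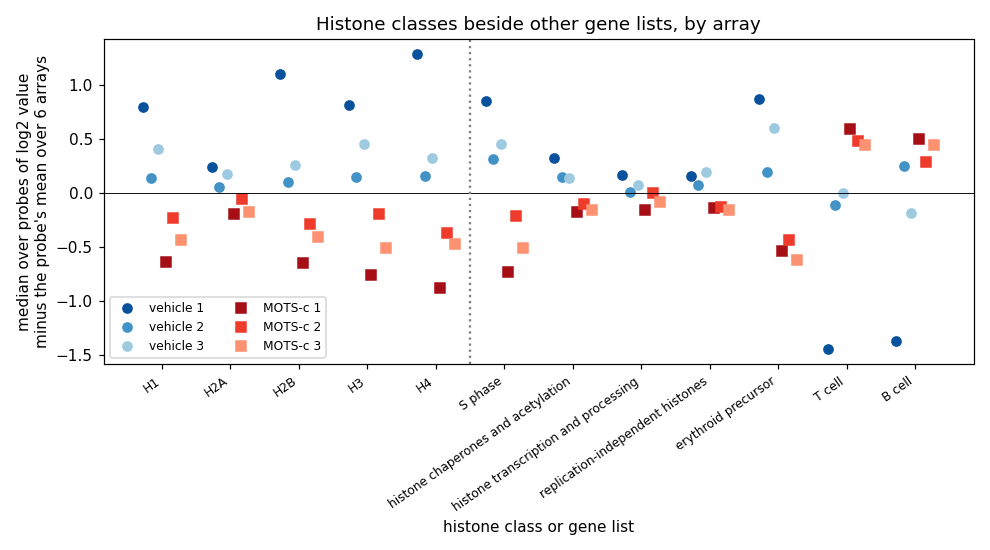
Points give, for each array, the median over probes of the log2 value minus the probe's mean over the 6 arrays, for the 5 histone classes and for 7 gene lists. The MOTS-c samples lie below the vehicle samples in all 5 histone classes and in every list except those of T and B cells, where they lie above. In the transcription and processing list, vehicle 2 (0.005) and MOTS-c 2 (0.002) nearly coincide.

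In the authors' deposited table, 24 of the 60 histone probes were lower and 0 higher at the authors' p under 0.05, and the smallest adjusted p among them was 0.370. The share of all probes at the authors' p is not given here, so these counts stand without a comparison. A further 3 probes carry a histone description but no symbol in that table and are no members: their differences were -0.09 (histone cluster 1, H2be), -0.04 (histone cluster 1, H4i) and 0.33 (histone cluster 2, H2aa1), all with overlapping groups.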

How the data were processed

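Spleen RNA of 3 vehicle and 3 MOTS-c samples was hybridised to 1-colour Agilent arrays. Per the file headers, Agilent Feature Extraction 11.0.1.1 gave a background-subtracted signal intensity per spot; the scanner intensities were deposited not normalized between arrays. The values used are the log2 values of the authors' deposited table, which are equal in distribution across arrays (largest difference between sorted columns 0.000644), as quantile normalization gives. The deposited table also holds the authors' signed fold (a ratio with a sign, treated as a score) and the authors' p-value with its adjustment. Its signals equalled the scanner's for 100% of 31399 single-spot probes.

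Groups and replicate numbers came from sample titles. All 31692 probes were fitted with limma 3.58.1 in R 4.3.3 (lmFit, eBayes, two-sided, MOTS-c minus vehicle, SE from the moderated variance), with Benjamini-Hochberg adjustment over all probes and a threshold of 0.05. The fit was tested on simulated data. Tables were made with Python 3.11.15. Named genes were, per class, the 4 with the smallest unadjusted p, up to 2 with the largest opposite difference, and Hist1h1c, Hist1h2bc, Hist2h2be and Hist3h2a; in the other lists, 3 with the smallest p, all replication-independent histones and the processing factors given. Some genes that this rule takes are not reported here. Members and lists were chosen with earlier results of these data known.

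Alternatives were scanner signals scaled to the 75th percentile, normexp with offset 50 and quantile normalization (on median signals, since the scanner files hold no mean signal), brighter probes only, an intensity trend, a replicate block, the slide as a block, the slide of both groups alone, and leaving out each sample. The number of arrays limits the precision. Probe coordinates are the array design's on mm9; their place in exons or untranslated regions was not determined.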

Additional observations from a re-analysis of the deposited data

How the results depend on the processing

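Under 13 alternative settings the median over all histone probes and each class median stayed negative. With samples left out in turn, the median over all histone probes ranged from -1.04 to -0.64 and the number of probes lower at an unadjusted p under 0.05 from 34 to 40. With samples left out, the number with an adjusted p under 0.05 ranged from 0 to 2: it was 2 without vehicle 2 (both probes of Hist3h2ba, adjusted p = 0.0492; 772 of all probes). It was 4 with an intensity trend (Hist1h2bp, both of Hist3h2ba, and Hist1h3d, smallest adjusted p = 0.0448; 721 of all probes). Without vehicle 3 it was 0, and 39 of all probes passed. With slide as a block, 15 histone probes in place of 39 were lower at an unadjusted p under 0.05, and 1 of all probes passed adjustment. The H2A median moved to -0.47 with 75th percentile scaling. Signs turned for the neutrophil list (-0.44 with the slide block and within slide 2), for Hist2h3c1 (-0.19 in both) and for Hist2h2be (with samples left out, from -0.33 without vehicle 2 to 0.010 without vehicle 3; it was -0.67 within slide 2); the causes were not tested. The 2 probes higher at an unadjusted p under 0.05 became 0 without any one MOTS-c sample.

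Same-numbered samples did not deviate together (correlations -0.176, -0.002 and -0.087), so the numbers were not taken as pairs. With the replicate block, 38 histone probes were lower at an unadjusted p under 0.05, the median was -0.85 and 0 passed adjustment. The table holds only probes well above background on all arrays, so it says nothing of dimmer histone probes. The brightest H2A probes sat at the top of the scale, where ranks set the values.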
